A study of Mus musculus with 11 samples.

Results

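CpG islands that lie inside gene bodies were examined in the pancreas of newborn mice. The authors' deposited table held 14841 CpG islands. Of these, 2911 lay on chromosomes 1 to 19 and overlapped a gene region by at least 1 bp and no promoter region. They are called intragenic islands below. A further 10640 islands overlapped a promoter, 877 lay outside genes and promoters, and 413 were on chromosome X or Y. DNA methylation had been measured by reduced representation bisulfite sequencing, in which MspI and TaqI cut the DNA so that reads cluster at CpG-rich sites, and bisulfite converts unmethylated but not methylated cytosines. The 11 mice were wild-type C57BL/6N pups of both sexes at postnatal day 0, of which 5 (3 females and 2 males) came from dams injected with amphetamine at 10 mg/kg on embryonic days 14.5, 15.5 and 16.5 and 6 (3 females and 3 males) from dams given saline. The study asked whether exposure in utero left marks on the methylome of the pancreas, and it also compared the 6 females with the 5 males. Whole pancreas was homogenized, so that a change within a cell type and a change in cell composition cannot be told apart. Whether pups shared a litter was not used here, and p-values measure only the spread between these mice.

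CpG islands are stretches of DNA rich in unmethylated CpG dinucleotides, and most of them mark promoters, where they are kept free of methylation. Islands within genes fall into different kinds. Some coincide with alternative or internal promoters and stay unmethylated, whereas others sit in exons of transcribed genes, where DNA methyltransferases methylate the gene body. Methylation within a gene is therefore not a mark of silencing in the way methylation of its promoter is.

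The islands ranged from nearly free of methylation to nearly fully methylated. To show the 3 levels, the centre of the island of highest coverage in saline mice is given for each, where that centre lies outside annotated UTRs, as 200 bases of the forward strand of GRCm38 with every CpG in capitals. Higher covered islands in Zfp521 and Gnas (low level) and Sema6c (intermediate level) were passed over because the centre fell in a UTR. The window in Ppp2r3d, a regulatory subunit gene of protein phosphatase 2A, is chr9:124424522-124424721. The window in Zfpm1, which encodes a cofactor of GATA factors, is chr8:122336402-122336601, and that in Zfp865, a zinc finger gene, is chr7:5030992-5031191.
Ppp2r3d: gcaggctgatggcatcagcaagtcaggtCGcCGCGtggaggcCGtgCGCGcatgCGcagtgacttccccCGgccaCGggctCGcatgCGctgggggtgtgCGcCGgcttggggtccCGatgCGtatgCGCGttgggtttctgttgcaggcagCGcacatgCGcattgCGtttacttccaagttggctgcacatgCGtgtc
Zfpm1: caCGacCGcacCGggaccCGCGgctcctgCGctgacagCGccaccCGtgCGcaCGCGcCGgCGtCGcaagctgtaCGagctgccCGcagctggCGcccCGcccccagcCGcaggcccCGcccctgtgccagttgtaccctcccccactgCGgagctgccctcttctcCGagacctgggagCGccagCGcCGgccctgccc
Zfp865: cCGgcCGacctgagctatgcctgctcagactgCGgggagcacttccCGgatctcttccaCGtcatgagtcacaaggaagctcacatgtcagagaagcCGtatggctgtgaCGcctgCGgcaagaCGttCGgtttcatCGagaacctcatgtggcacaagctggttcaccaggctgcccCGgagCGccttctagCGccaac
All 3 windows lie in islands that overlap a coding exon, and they hold 21, 25 and 14 CpGs. Methylation in saline mice was 2.22% for the Ppp2r3d island, 60.0% for the Zfpm1 island and 88.5% for the Zfp865 island. In amphetamine-exposed mice it was 1.74%, 57.6% and 88.5%, with a mean coverage that never fell below 769.6.

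In saline mice the median methylation of the intragenic islands was 3.48% (quartiles 1.70% and 33.2%). Methylation was under 20% in 2098 islands (72.1%), between 20% and 80% in 330 (11.3%) and over 80% in 483 (16.6%). Islands at promoters had a median of 1.87%, with 94 of 10640 (0.883%) over 80%, and islands outside genes and promoters had a median of 2.61%, with 33 of 877 (3.76%) over 80%. The 483 intragenic islands thus made up most of the 643 islands over 80% in the whole table. These shares describe regions and carry no test, because values per mouse were not used here. In amphetamine-exposed mice the median was 3.39%, and 2748 of the 2911 islands fell in the same level class as in saline mice. None moved from under 20% to over 80% or back.

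**Figure D1:**
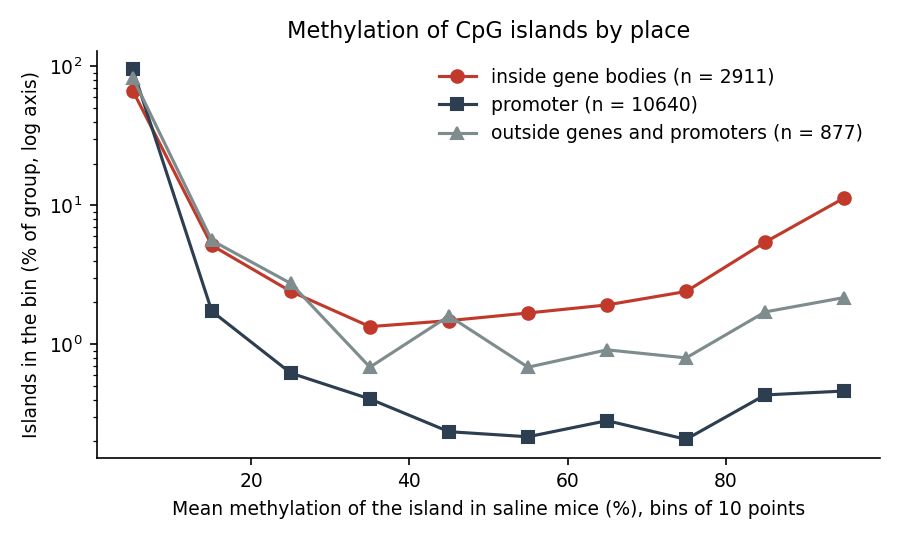
Share of islands (percent of each group, log axis) in 10-point bins of mean methylation in saline mice, for islands inside gene bodies, at promoters, and outside genes and promoters. All 3 groups peak in the lowest bin, which holds 66.9% of the intragenic islands and 95.4% of the promoter islands, and the intragenic islands have a second peak of 11.3% in the highest bin.

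Coverage, read as the sum over the CpG sites of an island, had a median over intragenic islands of 179.0 in saline and 223.4 in amphetamine-exposed mice. It was higher in the exposed group at 2344 of 2911 islands, and the median ratio over all islands of the table was 1.25. Of the intragenic islands, 2467 had a value in all 11 mice. The test below asked for a mean coverage of 10 or more in each group and at least 3 mice with values in each, which kept 2819. Of the 92 left out, 66 were below the coverage minimum and 26 had too few mice.

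The level of an intragenic island differed with its place in the gene. Annotated transcript starts of GENCODE M21 fell inside 1034 intragenic islands, and the median of these was 2.08%, with 30 (2.90%) over 80%. The 1877 islands without an annotated start had a median of 7.08%, and 453 of them (24.1%) were over 80%. Promoter islands with an annotated start had a median of 1.85%, so that intragenic islands with a start had a median only slightly above theirs.

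Islands were also classed by the first of coding exon, UTR, non-coding exon and intron of the host gene that they overlapped. The 1919 islands in coding exons had a median of 5.70% and included 451 of the 483 islands over 80%. In coding exons without a transcript start (1320 islands) the median was 23.6%, and 32.1% were over 80%. In contrast, the 421 islands in introns had a median of 2.71% with 5.46% over 80%, the 451 islands in UTRs 1.96% with 0.887%, and the 106 islands in non-coding exons 2.69% with 4.72%. A transcript start lay in 83.6% of the UTR islands. Without a start the median was 2.64% in introns (405 islands, 5.19% over 80%) and 2.47% in UTRs (74 islands, 5.41%). In non-coding exons without a start it was 2.80% (70 islands, 5.71%). The other 14 islands had no such class, because they did not lie within the annotated gene or the gene was not found in the annotation, and had a median of 1.45%.

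Along the host gene, the median climbed from 2.08% in decile 1 of its length (549 islands) to 4.19% in decile 6 (214) and 35.1% in decile 10 (407). Transcript starts became rarer over the same course, from 50.8% of islands in decile 1 to 8.11% in decile 10. Among islands without a start the median still went from 2.40% to 45.8%, and the share over 80% from 5.56% to 37.4%. Among islands with a start the median was 1.84% in decile 1 and 2.89% in decile 10. Across 2906 intragenic islands with a position, Spearman's rho between position and methylation was 0.38. These points share libraries and differ in length and base composition, so the coefficient is a description only.

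**Figure D2:**
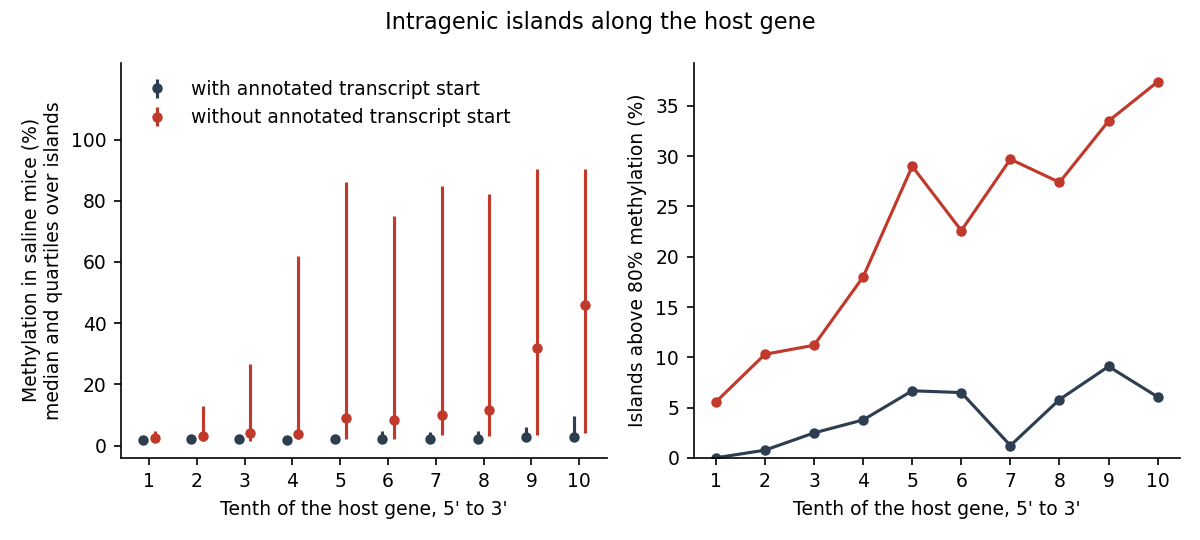
Methylation of intragenic islands in saline mice by decile of the length of the host gene from its 5′ end, split by whether an annotated transcript start lies inside the island. Left, median with quartiles over islands (%). Right, share of islands over 80% (%). Islands without a start reach a median of 45.8% in decile 10, whereas the median of islands with a start stays at or below 2.89%.

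The same order was seen within genes. Of 395 genes with at least 2 intragenic islands at a coverage of 10, the island nearest the 3′ end had the higher methylation in 259 and the lower in 135. It was higher by over 50 percentage points in 85 genes and lower by as much in 17. The median difference was 2.20 points.

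Islands of different level also differed in sequence. Islands under 20%, of 20 to 80% and over 80% had median lengths of 479, 362 and 287 bp, with 9.72, 8.39 and 7.79 CpGs per 100 bp. Their median GC content was 68.5%, 65.8% and 63.1%. MspI sites numbered 6, 3 and 2 per island at the median, and the median coverage in saline mice was 211.8, 118.6 and 108.2. The part of this depth gradient in the level classes was not tested. Among 2479 islands with a mean coverage of at least 50 in each group, 14.2% were over 80% and 75.8% under 20%. Over all intragenic islands these shares were 16.6% and 72.1%.

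The deposited tables of genes and promoters gave a second readout for the same loci. Averaged over the whole gene, the body of the host gene had a median methylation of 28.4% for islands under 20%, 42.7% for the intermediate ones and 55.6% for those over 80%. Promoters of the host genes had low medians in all 3 classes, at 4.47%, 3.94% and 3.06%. Of 441 islands over 80% whose host promoter was measured, 387 (87.8%) had a promoter under 20%. Over all intragenic islands this share was 76.5% (1871 of 2447). No coverage minimum was set for the promoters. Tiles of 5000 bp flanking the islands had medians of 55.8%, 60.5% and 77.7%. Islands were below their host gene at 2085 of 2845 loci with a coverage of 10 in both (median difference -14.57 points) and above it at 740. Of the islands over 80%, 451 of 462 lay above the mean of their gene body, which also contains the island itself.

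The intragenic islands were spread over 2342 host genes, of which 1930 held 1 island and 412 held 2 or more. Overlapping genes shared 226 islands, and these were assigned to the gene with the longest overlap, then to a named gene and the shortest. Fat1 and Zfhx3 held 7 islands each, and Nfix, Pax6, Sptbn4 and the predicted gene Gm20388 held 6 each. Fat1 encodes an atypical cadherin. Its most 5′ island, in an intron, was at 2.05% ± 2.41 (SD, n = 6) in saline mice, whereas the 6 islands in its coding exons had group means between 92.3% and 100%. Zfhx3, a large zinc finger homeobox factor, showed the same split, with 5.004% ± 2.95 and 1.79% ± 1.57 (SD, n = 6) in its first 2 islands and means between 79.9% and 97.9% in the 5 coding exon islands that followed. Only 3 saline mice had values at the second Fat1 island and 4 at the fourth Zfhx3 island.

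All 6 islands in Pax6, a homeobox factor required for endocrine islet cells, had means between 0% and 3.33% in saline mice and between 0% and 4.87% in amphetamine-exposed mice. In Nfix, a nuclear factor I gene, the means ran from 2.64% at the 5′ end to 42.0% ± 31.1 (SD, n = 6) at the fourth island and back to 8.83% at the last. Sptbn4, a spectrin gene, had means from 0% to 20.0%, the highest with a mean coverage of only 13.2 in saline mice. Gm20388 is a gene model of 4434880 bp with 6 islands that lay in no other named gene, and their means ran from 0.45% to 75.2%.

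**Figure D3:**
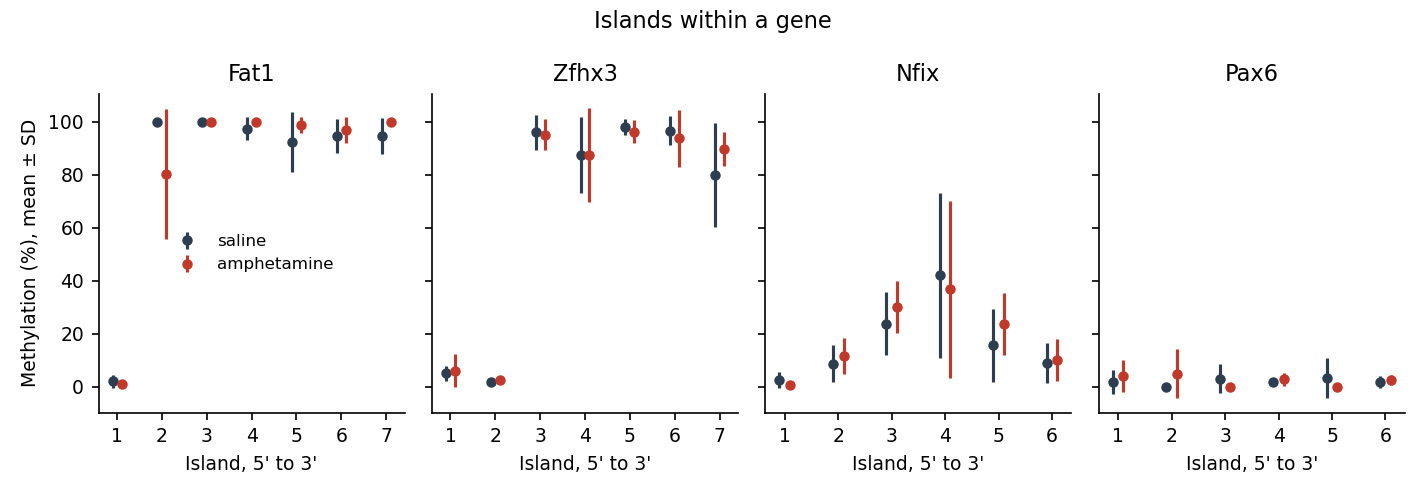
Methylation (%) of the intragenic islands of Fat1, Zfhx3, Nfix and Pax6 in 5′ to 3′ order, as mean ± SD over the mice with values in the saline and amphetamine groups, with SD bars not limited to 0 to 100. The first island of Fat1 and the first 2 of Zfhx3 are below 7% in both groups while the rest exceed 79%, and all Pax6 islands stay below 5%.

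Levels were then described by gene family. Of all intragenic islands 72.1% were under 20%, 11.3% intermediate and 16.6% over 80%, and the counts per family below stand beside these shares. In short lists a few islands set the counts. All 28 islands in Hox genes, the clustered homeobox genes of axial patterning, were under 20%, with a median of 3.38%. The lowest were in Hoxb6 (0% in 5 saline mice) and Hoxd3 (0.17% ± 0.30, SD, n = 6). The highest were in Hoxb3, at 12.7% ± 8.10, and in Hoxb3os where it overlaps Hoxb3, at 11.2% ± 12.6 (SD, n = 6). The Hoxb3os island had a mean coverage of only 11.5 in saline mice, with a lowest mouse of 3. Of 66 islands in genes of the forkhead, Sox, T-box, Pax, LIM homeobox, sine oculis homeobox and Irx families, 59 were under 20% and 4 over 80% (median 2.76%). These 4 included islands of Foxp4 (91.6% ± 7.37, SD, n = 6) and Sox5 (89.5% ± 14.2, SD, n = 6), while the lowest means were 0% in Tbx5 and Pax6.

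Of 37 islands in 20 transcription factor genes of the pancreas, 33 were under 20% and none was over 80% (median 3.06%). Bhlha15, which encodes the acinar cell factor MIST1, had an intermediate island in its coding exon at 47.8% ± 26.7 (SD, n = 6). The island of the acinar factor gene Rbpjl was at 50.4% (range 0% to 100%) in the 3 saline mice with values, with a mean coverage of 8.83. The lowest were Lmx1b and Pax6, at 0%.

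Zinc finger genes of the Zfp family were split. Of their 76 islands, 40 were under 20%, 10 were intermediate and 26 were over 80% (median 14.4%). Islands of Zfp516 and Zfp647 were at 100% in the 5 saline mice with values, and islands of Zfp661 and Zfp217 at 0%. Another Zfp516 island was at 1.16% and another Zfp217 island at 1.99%. The 14 islands in the clustered protocadherin genes, cell surface cadherins expressed from alternative first exons, had a median of 57.9%, and 10 of them were intermediate. Pcdhb20 (91.7% ± 14.4, SD, n = 3) and Pcdhga2 (82.0% ± 20.7, SD, n = 5) were the highest, and Pcdhgb7 (0%, n = 4) and Pcdhgb8 (40.8% ± 20.1, SD, n = 6) the lowest. The Pcdhgb7 island, with a mean coverage of 6.83 in saline mice, was below the minimum for the test. Of 6 islands in collagen genes 4 were over 80%, led by Col6a2 (96.7% ± 8.16, SD, n = 6) and Col15a1 (90.8% ± 18.4, SD, n = 4), while Col2a1 (1.07%) and Col8a2 (5.77%) were low.

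Of 43 islands in voltage-gated calcium and potassium channel genes, 27 were under 20%, 9 intermediate and 7 over 80% (median 6.22%). They ran from Kcnh6 (0%) and Kcnk12 (0.35%) to Kcnj12 (98.5%) and Kcnd3 (100%, n = 3). Of 36 islands in glutamate receptor and scaffold genes, 25 were under 20% and 4 over 80% (median 4.04%). One Dlg4 island was at 0% and a Grin2c island at 0.09%, whereas the island shared by Grin3b and Tmem259 was at 89.9% ± 5.50 (SD, n = 6) and that of Dlgap4 at 96.7% ± 7.29 (SD, n = 5).

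The few islands in genes of monoamine signaling were low, as were 72.1% of all intragenic islands. Of 41 serotonin and monoamine genes in the gene table, 6 held 7 intragenic islands, all under 20% (median 2.33%). Drd4, a dopamine receptor gene, was at 0.04% and Htr1d at 1.77%, while Htr1a, the serotonin 1A receptor gene, was at 3.70% ± 9.07 (SD, n = 6) and Adra1d, an adrenergic receptor gene, at 11.2% ± 11.5 (SD, n = 6). Of 15 islands in insulin secretion and signaling genes, 11 were under 20% and 1 over 80% (median 5.89%). Irs1 (0.08%) and Gipr (0.32%) were the lowest, and Igf1r (96.0% ± 8.94, SD, n = 5) the highest.

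Imprinted genes are expressed from only 1 parental allele. Of 19 islands in the imprinted genes listed, 7 were between 20% and 80%, 11 under 20% and 1 over 80% (median 18.4%). In Grb10, an adaptor that dampens insulin receptor signaling, 1 island was at 58.6% ± 17.4 and another at 1.91% ± 1.74 (SD, n = 6). Calcr, the calcitonin receptor gene, was at 0.76%. In Trappc9 1 island was at 100% in 5 saline mice and another at 53.3%. Of 10 islands in genes of the DNA methylation machinery, 7 were low and 3 over 80%. Dnmt1 was at 0.51%, Zbtb38 at 1.28%, a Tet3 island at 95.8% ± 4.21 (SD, n = 6) and Mbd3 at 100%. Other Tet3 islands were at 90.5% and, over a transcript start, at 1.44%. Of 7 islands in receptor protein tyrosine phosphatase genes 6 were low. In Ptprs 1 island was at 92.2% ± 4.52 and another at 1.85% ± 2.34 (SD, n = 6), with Ptprn2 at 1.56% and Ptprf at 11.2%.

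Mice differed most at islands of intermediate level. The median SD over saline mice was 2.34 points for islands under 20%, 18.2 for those between 20% and 80% and 7.18 for those over 80%. Over amphetamine-exposed mice it was 2.10, 12.8 and 5.73 points for the same islands, which had higher coverage in that group. Classes were set on the means of the same saline mice, and the bounds of 0% and 100% limit the SD near either end. Median saline coverage also differed between the classes, at 211.8, 118.6 and 108.2. The order of the classes in spread is thus a description only, and the difference between the groups in spread was not tested. Among islands with a value in all mice and a mean coverage of at least 50, the largest SD in saline mice was in Zscan10, a zinc finger factor of stem cells, at 47.7% ± 45.2 (SD, n = 6) with mice from 0% to 97.9%. Next came Tbkbp1 (44.5% ± 44.5), Wdfy3 (53.0% ± 40.8), Plec (20.3% ± 40.01) and Ebi3 (31.8% ± 39.9), each with a mouse at 0% and another above 93%. The lowest coverage of a saline mouse at these islands was between 7 and 40, so that single mice rest on few reads there.

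Amphetamine exposure was then compared with saline. No intragenic island passed the thresholds (adjusted p under 0.05, quotient of the means above 1.5 and difference above 25 points) among 2819 tested, against 0 of 14178 autosomal islands (0%). The lowest adjusted p of an intragenic island was 0.922 by limma. At an unadjusted p under 0.05, 82 intragenic islands (2.91%) were higher and 42 (1.49%) lower in exposed mice. Over all autosomal islands these shares were 2.51% and 1.55%, so that the intragenic islands stood near the background in both directions. The median difference was 0.01 points over intragenic islands and 0 over all autosomal islands.

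Between the 5th and the 95th percentile, differences spanned -7.25 to 8.82 points over all intragenic islands tested and -18.2 to 20.5 points over those between 20% and 80% in saline mice. A difference above 25 points was seen at 26 of 2819 intragenic islands, beside 44 of all 14178 autosomal islands, and none of the 26 passed the test. Of the 26, 20 were between 20% and 80% in saline mice. By the mean over all mice, 22 of 309 intragenic islands between 20% and 80% differed by over 25 points, beside 34 of 558 autosomal ones. Among 309 islands with a mean over all mice between 20% and 80%, 16 were higher and 5 lower at an unadjusted p under 0.05, beside 30 and 7 of 558 such autosomal islands.

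Groups that did not overlap, with every exposed mouse above or every exposed mouse below all saline mice, were found at 11 of 2464 intragenic islands with values in all mice and a mean coverage of 10 or more in each group. For a single island an exact permutation test then gives a two-sided p of 0.00433, the smallest this design allows. Of these, 8 (0.325%) were higher and 3 (0.122%) lower in exposed mice, beside 0.326% and 0.121% of autosomal islands. The 8 were in Nod1, Cacna1a, Shank2, Hoxd3, Hoxc9, Alk, Ebf3 and Prdm16, and the 3 in Pard6b, Spen and Hiat1. Some gaps were very narrow. The lowest exposed and highest saline mouse were at 1.18% and 1.14% at Hoxc9 and at 0.15% and 0% at Alk. At Hiat1 the highest exposed mouse was at 0.61% and the lowest saline mouse at 0.64%.

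The islands of smallest p with values in all mice are described next, each with an adjusted p of 0.922 by limma. The first in each direction are shown as 200 bases at the island centre, again with CpGs in capitals. The Cdr2l window is chr11:115393608-115393807 and the Pard6b window chr2:168098669-168098868 of GRCm38, both within coding exon islands.
Cdr2l: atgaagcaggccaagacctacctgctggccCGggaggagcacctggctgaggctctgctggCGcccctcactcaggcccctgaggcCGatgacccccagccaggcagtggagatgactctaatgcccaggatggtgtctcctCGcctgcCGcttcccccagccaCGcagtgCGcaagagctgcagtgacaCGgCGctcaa
Pard6b: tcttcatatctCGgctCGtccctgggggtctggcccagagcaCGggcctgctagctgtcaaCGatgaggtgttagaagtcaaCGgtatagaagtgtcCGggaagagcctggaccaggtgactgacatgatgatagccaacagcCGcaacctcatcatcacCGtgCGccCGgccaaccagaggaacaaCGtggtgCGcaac
They hold 9 and 12 CpGs. Cdr2l encodes a relative of the cerebellar degeneration antigen Cdr2, and Pard6b a subunit of the cell polarity complex.

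The Cdr2l island was at 68.0% ± 3.17 (SD, n = 5) in exposed and 57.01% ± 4.84 (SD, n = 6) in saline mice, with ranges of 63.1% to 71.7% and 52.5% to 65.6%. Nod1, an intracellular sensor of bacterial peptidoglycan, had a coding exon island (chr6:54943915-54944335) at 77.8% ± 8.82 (SD, n = 5) against 48.1% ± 13.7 (SD, n = 6). The ranges at Nod1, 63.7% to 88.1% and 27.2% to 61.8%, did not overlap, whereas those at Cdr2l did. The difference at Nod1 was 29.7 points (SE 6.78).

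Low islands were also among the higher ones. Aqr, a helicase of the spliceosome, was at 9.02% ± 5.25 (SD, n = 5) against 0.21% ± 0.51 (SD, n = 6). Cacna1a, the pore subunit of P/Q-type calcium channels, had an island over a transcript start (chr8:84414263-84415690) at 3.06% ± 1.18 against 0.99% ± 0.33, with mean coverages of 961.6 and 865.2. The pseudogene Spr-ps1 was at 5.26% ± 2.49 against 0.93% ± 1.60. Ranges overlapped at Aqr and Spr-ps1 and not at Cacna1a.

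Of the lower islands, Pard6b was at 80.7% ± 3.92 (SD, n = 5) in exposed and 88.7% ± 2.31 (SD, n = 6) in saline mice, with ranges of 75.1% to 85.2% and 85.6% to 91.4%. Spen, a transcriptional corepressor, was at 81.9% ± 5.04 against 90.1% ± 2.99. Neither pair of ranges overlapped, by margins of under 1 point. Nosip, a ubiquitin ligase that binds nitric oxide synthase, was at 87.1% ± 7.30 against 97.3% ± 3.28, with a saline mouse of coverage 16. Map3k6, a stress kinase, was at 0% in every exposed mouse and between 0% and 15.4% in saline mice (mean 8.10%). Zmat4, a zinc finger gene, was at 0.38% ± 0.60 against 5.20% ± 3.37. At Nosip, Map3k6 and Zmat4 the ranges overlapped.

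**Figure D4:**
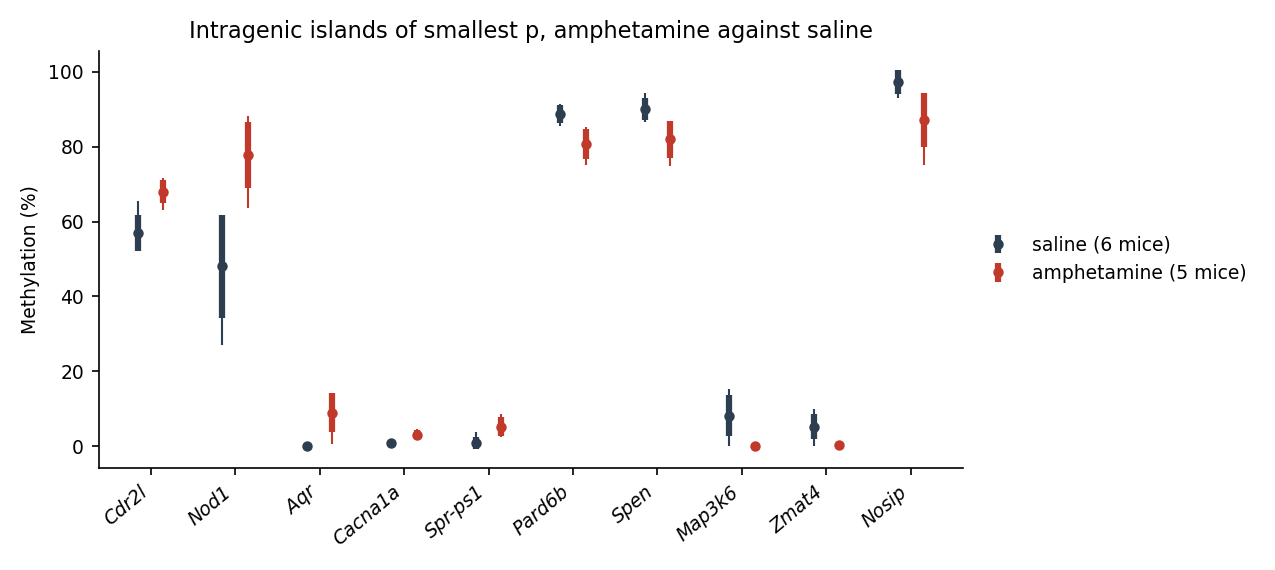
Methylation (%) of the 5 higher and 5 lower intragenic islands of smallest p between amphetamine-exposed and saline mice. Points are means, thick bars the SD and thin lines the lowest to highest mouse. Ranges are apart at Nod1, Cacna1a, Pard6b and Spen, and overlap at the other 6.

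Beyond these, islands with a mean coverage of at least 50 and the largest differences were looked up after the values were seen. Impact, an imprinted gene that encodes an inhibitor of the GCN2 kinase, had an intronic island at 78.5% ± 4.47 (SD, n = 5) in exposed mice and 33.6% ± 23.8 (SD, n = 5) in saline mice, 1 of which had no value. The ranges of 71.3% to 82.3% and 0% to 61.7% did not overlap. Zscan10 was at 91.9% ± 14.5 (SD, n = 5) against 47.7% ± 45.2 (SD, n = 6), and Celf6, an RNA-binding protein gene, at 64.2% ± 9.86 (SD, n = 4) against 32.5% ± 22.6 (SD, n = 6). Lmna, the lamin A/C gene, was at 37.5% ± 47.9 (SD, n = 4) against 73.6% ± 16.3 (SD, n = 5), and Wnt6, a secreted ligand, at 9.72% ± 9.15 against 40.7% ± 16.7 (SD, n = 5 each). Ranges overlapped at these 4.

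Within the gene lists no island passed the adjusted threshold for treatment, and the counts below are at an unadjusted p under 0.05, which 2.91% of all intragenic islands met as higher and 1.49% as lower, beside 2.51% and 1.55% of autosomal islands. With lists this short, single islands set these counts. In the pancreas factors 3 of 35 were higher and none lower. These were islands of Pdx1, the factor that specifies pancreas and β cells (5.92% ± 3.33 against 2.48% ± 1.47), Nr5a2 (3.47% ± 1.70 against 0.93% ± 1.66) and Lhx1 (2.70% ± 2.31 against 0.12% ± 0.28, SD, n = 5 and 6). In the glutamate list 3 of 36 were higher and 1 lower. Among the higher ones, Dlgap3, a postsynaptic scaffold, was at 89.0% ± 7.43 against 75.7% ± 9.04 and Shank2, another scaffold, at 30.2% ± 20.4 against 4.18% ± 4.67. The lower one was Dlgap4, at 73.5% ± 20.6 (SD, n = 4) against 96.7% ± 7.29 (SD, n = 5). Ranges of the groups overlapped at each of these named pancreas and glutamate list islands except Shank2.

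In the Hox genes 2 of 28 islands were higher, Hoxd3 at 13.5% ± 10.1 against 0.17% ± 0.30 and Hoxc9 at 1.78% ± 0.74 against 0.54% ± 0.59. In the DNA methylation machinery 2 of 10 were lower. Dnmt3a, the de novo methyltransferase gene, was at 0.83% ± 0.59 (SD, n = 5) against 5.98% ± 4.52 (SD, n = 6), and Gadd45b, linked to demethylation, at 2.08% ± 1.74 against 5.47% ± 3.06. At Dnmt3a and Gadd45b the ranges overlapped. The channel list had 2 higher and 1 lower of 39, the Fox to Irx list 2 and 1 of 63, the Zfp list 2 and 0 of 74, and the insulin list 1 and 0 of 15. The monoamine, imprinted, protocadherin, collagen and phosphatase lists had none of 7, 19, 13, 5 and 7 in either direction. Impact, described above with a higher mean in exposed mice, was not on the imprinted list. List medians of the difference lay between -3.38 points in collagens and 0.54 points in the glutamate list.

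The same 11 mice were compared by sex next, irrespective of treatment. Adjusted p was under 0.05 at 3 of 2820 intragenic islands (0.106%), the same share as the 0.106% over all autosomal islands, and 1 of them also passed the quotient and difference thresholds, beside 0.0212% of autosomal islands. The adjustment ran over all islands of the table, including those on X. When it ran over autosomes alone, no intragenic island had an adjusted p under 0.05, the lowest being 0.220 by limma.

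The 3 islands were all lower in females. Otp encodes a homeobox factor of the hypothalamus, and its coding exon island (chr13:94876989-94877530) was at 1.67% ± 1.02 (SD, n = 6) in females and 6.62% ± 1.60 (SD, n = 5) in males (adjusted p 0.0151 by limma, between 0.0134 and 0.220 over 7 alternatives). Lhx4, a LIM homeobox gene, had an intronic island (chr1:155736868-155737982) at 0.78% ± 0.49 against 3.43% ± 0.93 (adjusted p 0.0277 by limma, between 0.0266 and 0.371 over 7 alternatives). Ranges did not overlap at either, with 0% to 2.55% against 3.81% to 7.88% at Otp and 0% to 1.37% against 2.13% to 4.37% at Lhx4. Both differences were under 5 points.

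The island past all thresholds was at the 3′ end of Spi1, which encodes the myeloid factor PU.1, overlapping a coding exon at chr2:91115204-91115607. It was at 21.1% ± 11.4 (SD, n = 6) in females and 59.5% ± 8.52 in the 4 males with values (adjusted p 0.0238 by limma, between 0.0153 and 0.335 over 4 alternatives). The ranges of 0% to 33.3% and 50% to 66.7% did not overlap. Mean coverage was 14.0 in females and 17.4 in males, and the lowest covered female had 6, so that this value rests on few reads. It was not tested under a coverage minimum of 50 or the demand for values in all mice.

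At an unadjusted p under 0.05, 63 intragenic islands (2.23%) were higher and 76 (2.70%) lower in females, beside 2.18% and 2.58% of autosomal islands. Under the same filter, ranges did not overlap at 8 of 2465 islands (0.325%) that were higher and 5 (0.203%) that were lower, beside 0.273% and 0.220%. The intragenic islands were thus near the background here as well.

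The next islands by p had an adjusted p above 0.05. Hpcal4, a neuronal calcium sensor, was at 98.0% ± 2.21 (SD, n = 6) in females against 89.4% ± 4.09 (SD, n = 5) in males, and Epha2, an ephrin receptor, at 98.1% ± 1.63 against 89.0% ± 4.98. The lowest female lay above the highest male at both. Low islands with higher means in females were those of Tbx2 (5.30% ± 2.40 against 0.83% ± 0.73), Notch3 (8.09% ± 3.42 against 1.57% ± 1.54) and the predicted gene Gm12446 (4.11% ± 0.80 against 1.32% ± 1.16). Only the last of these had ranges that did not overlap.

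Lower in females were Phyhipl (0.84% ± 0.70 against 4.03% ± 1.66) and Zfp865 (86.0% ± 2.26 against 91.6% ± 2.23, SD, n = 6 and 5), both without overlap. Dlg4, which encodes the postsynaptic scaffold PSD-95, had the widest gap of these 10 islands, at 11.8% ± 13.2 against 64.9% ± 30.0. Its ranges of 0% to 32.2% and 16.7% to 88.9% overlapped, and the lowest coverage of a mouse was 11. Its adjusted p was 0.129 by limma.

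**Figure D5:**
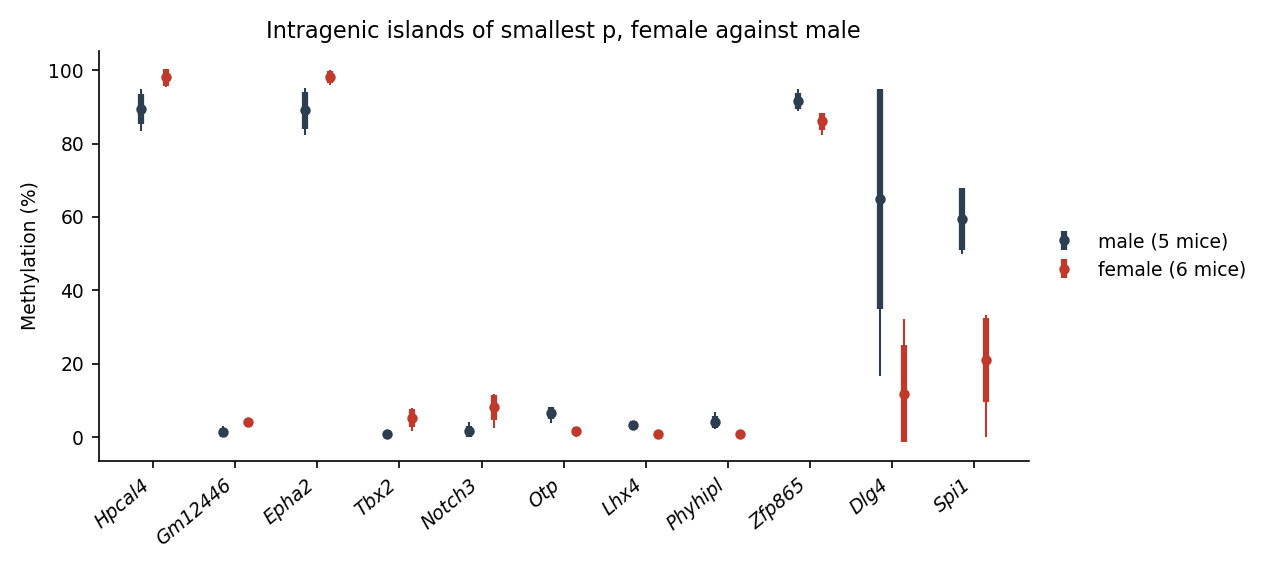
Methylation (%) of the 5 higher and 5 lower intragenic islands of smallest p between females and males with values in all mice, and of Spi1, where 4 males had values. Points are means, thick bars the SD and thin lines the lowest to highest mouse, with SD bars not limited to 0 to 100. Otp and Lhx4, with an adjusted p under 0.05 over all islands, differ by less than 5 points, whereas Spi1 differs by -38.4 points (female minus male) at a mean coverage of 14.0 and 17.4.

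In the gene lists, counts for sex at an unadjusted p under 0.05 were 2 higher and none lower of 35 in pancreas factors, and 1 and 3 of 36 in the glutamate list. Over all intragenic islands 2.23% were higher and 2.70% lower at this p, and over autosomal islands 2.18% and 2.58%. The 2 pancreas factors were Mnx1, a β-cell homeobox factor (44.7% ± 25.8 in 6 females against 9.95% ± 15.1 in 5 males, SD), and Gata4 (28.5% ± 16.8 against 5.30% ± 4.72). Ranges overlapped at both, and the lowest covered male at Mnx1 had a coverage of 14. In the glutamate list Grin2a was higher in females (29.0% ± 13.6 against 10.3% ± 5.98). Dlg4, Shank3 (25.1% ± 9.18 against 49.4% ± 16.8) and Grin2c (2.64% ± 1.72 against 4.88% ± 0.94) were lower. Ranges overlapped at each of these as well. The Hox list had 0 higher and 2 lower of 28, the channel list 1 and 1 of 41, the Fox to Irx list 3 and 1 of 64, and the Zfp list 1 and 3 of 74. The insulin (of 15), methylation machinery (of 10) and phosphatase (of 7) lists had 1 higher each and none lower. The monoamine, imprinted, protocadherin and collagen lists had none of 7, 18, 12 and 4.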

How the data were processed

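The authors aligned single-end reads from 11 mice to mm10 (GRCm38) with Bismark and summarized CpGs per region with RnBeads. The deposited tables give, per region and group, the mean methylation as a fraction (printed here as a percent), its SD, lowest and highest value over mice, the number of mice without a value, and a coverage signal that the authors averaged over mice without normalizing for depth. Whether coverage sums over CpG sites is not given in the sources used here. Columns with the authors' own differences, quotients, p-values, adjusted p-values and ranks were not used. Values per mouse were not used, and the versions of Bismark and limma that the authors ran are not given in the sources used here.

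Islands were joined to genes and promoters by an overlap of at least 1 bp. Feature classes and transcript starts came from GENCODE M21, which holds 2337 of 2342 host genes, and bases from the RefSeq copy of GRCm38. The test was limma 3.58.1 in R 4.3.3, with each island's variance rebuilt from the deposited group SDs, moderated, and Benjamini-Hochberg adjusted over all islands tested (14577 for treatment, 14563 for sex). The quotient used an offset of 0.01 on the fraction scale. Tests were two-sided. The step was tested on simulated data for the treatment comparison with 13526 islands: of 200 islands shifted by 30 percentage points 93.5% had an adjusted p under 0.05 by limma, as did 14 unshifted ones. The 200 were drawn from islands of all levels, and 90.9% of islands in the table were under 20% in saline mice. The rate was not measured for intermediate islands alone. In the real data the median SE was 9.80 points for intragenic islands of 20 to 80%, against 1.22 over all islands tested.

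The members and gene lists were chosen with earlier results of these data known. Islands named are the 5 higher and 5 lower of smallest p per comparison, up to 2 lowest and 2 highest per gene list, the genes with most islands, the 5 largest SDs in saline mice, and any island past the thresholds under any setting. Islands of a list with an unadjusted p under 0.05, the 5 largest differences and those without overlap were added after the values were seen. Gene lists matched any gene overlapping an island. Alternatives were no coverage minimum or one of 50, values in all mice, a trended prior, the other factor as a covariate, adjustment over autosomes, adjusted p alone, and islands wholly inside a gene. Of the islands this rule names, 2 are not reported here.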

Additional observations from a re-analysis of the deposited data

How the results depend on the processing

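Counts of intragenic islands at an unadjusted p under 0.05 stayed within 1.5 times under every alternative run, at 111 to 135 for treatment (124 in the report) and 126 to 139 for sex (139). No alternative gave an intragenic island past the thresholds for treatment. For sex the count of 1 became 0 with a mean coverage of at least 50, with values in all mice, with a trended prior, with treatment as a covariate and with adjustment over autosomes, and 3 with an adjusted p under 0.05 alone. At the coverage of 50, with values in all mice and with the covariate (fitted on islands with values in all mice), Spi1 was not among the islands tested. The cause of the loss under the trended prior was not tested. Adjusting over autosomes leaves out the X-linked islands, whose small p-values lower the adjusted p of all other islands. The share of islands under 20% was 75.8% with a mean coverage of at least 50, against 72.1%. An SD above 0 in both groups, chosen after the data were seen, changed no count by over 1.5 times. No named island changed direction. For Lhx4 the result for sex was weaker with a trended prior, with treatment as a covariate, with adjustment over autosomes and with an SD above 0 in both groups. For Spi1 it was weaker with the trended prior and with adjustment over autosomes, and for Otp only with adjustment over autosomes. Leaving out each mouse was not run, since it needs values per mouse. No paired analysis was possible because replicate numbers in the labels do not tie mice of different groups. Groups of 5 and 6 limit what can be detected, and at a coverage near 10 a single read moves a value by several points.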

Other observations

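By the same rule, 82 islands on chromosome X lay inside gene bodies. Of the 72 tested for sex, 18 had an adjusted p under 0.05 by limma, all higher in females, and 12 passed the thresholds. Their median methylation was 27.8% in females and 2.43% in males, with a median difference of 21.4 points. In 29 of the 60 with values in all mice every female was above every male, and in 0 of the 60 was every female below. Of all 388 islands on chromosome X or Y tested for sex, 146 had an adjusted p under 0.05 by limma and 89 passed the thresholds. The median difference over those 388 was 22.0 points, so the difference was not particular to X-linked islands inside gene bodies.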
